A study of Homo sapiens with 18 samples.

Results

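The genes described here are 49 genes that build, start and supply DNA replication. They were taken by symbol, and each of the 49 matched 1 row of a table of 63677 gene rows that holds read counts for 18 RNA-seq libraries in 6 groups. Testing was limited to genes with over 5 counts in no fewer than 10 of the 18 libraries, which 15576 genes and all of the 49 met. The lowest count of any of the 49 in any library was 25.

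The libraries were made from NCI-H1299, an established human lung cancer cell line that the labels call a lung adenocarcinoma, at passage 12 to 14. Each group had 3 libraries, replicates a, b and c. The TBX2 and TBX4 groups were transiently transfected with Flag-tagged human plasmids, the TBX3 group with an HA-tagged human plasmid and the TBX5 group with an HA-tagged mouse plasmid. The EV group received empty vector, and the Ctl group is a second control whose treatment the sources used here do not give. The methods describe plasmids of more than one backbone and do not say which of them the empty vector matches, they describe an uptake that leaves part of the cells untransfected, and they do not say at which hour the RNA was taken. The T-box proteins TBX2 to TBX5 are transcription factors of 1 subfamily that is active in the developing lung. Nothing in the labels says that replicates came from separate cultures, so p-values measure the spread between these libraries, which may be technical.

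DNA replication begins in G1 phase, when the origin recognition complex (ORC), CDC6 and CDT1 load the MCM2-7 helicase onto DNA. In S phase CDC45 and the GINS complex switch this helicase on, polymerase alpha and primase lay down the first nucleotides, and polymerases delta and epsilon copy the strands with the sliding clamp PCNA. Many of these genes are known targets of E2F transcription factors, which cyclin E and its kinase release at the start of S phase, so their mRNAs rise together in dividing cells. In these bulk libraries, fewer cells in S phase and less mRNA in each such cell cannot be told apart.

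Promoter windows of 300 bases, 250 before and 50 after the annotated start, were available from RefSeq (build GRCh38.p14) for 42 of the 49 genes. An E2F word, any of TTTGGCGC, TTTCCCGC, TTTCGCGC or TTTGCCGC on either strand, was present in 19 of these 42 windows (45.2%), against 3.33% of all 27056 windows in the table. Among the genes that were lower than both controls under at least 1 TBX plasmid, 10 of the 18 with a window held such a word (55.6%), and among the other 24 genes 9 did (37.5%). The T-box word GGTGTGA was in 2 of the 42 windows (4.76%), those of E2F1 and RFC1, against 3.44% of all windows. CCAAT was in 23 of them (54.8%), against 35.7% of all. A match of these letters is a description and not evidence of binding. The windows of 4 genes that were lower under TBX2, 2 helicase subunits, the ligase and the regulator E2F1, and that of ORC5, the 1 gene that was higher, are shown from 5′ to 3′ on the gene's strand with the E2F words in capitals. They lie at chr3:127598161-127598460, plus strand (MCM2), chr7:100101348-100101647, minus (MCM7), chr19:48170295-48170594, minus (LIG1), chr20:33686336-33686635, minus (E2F1) and chr7:104207964-104208263, minus (ORC5).
MCM2: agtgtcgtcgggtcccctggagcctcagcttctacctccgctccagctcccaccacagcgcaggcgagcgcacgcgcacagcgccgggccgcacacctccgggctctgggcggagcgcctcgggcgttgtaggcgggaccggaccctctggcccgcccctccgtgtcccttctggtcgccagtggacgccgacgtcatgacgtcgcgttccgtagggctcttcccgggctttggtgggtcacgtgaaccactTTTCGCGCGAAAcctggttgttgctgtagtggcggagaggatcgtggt
MCM7: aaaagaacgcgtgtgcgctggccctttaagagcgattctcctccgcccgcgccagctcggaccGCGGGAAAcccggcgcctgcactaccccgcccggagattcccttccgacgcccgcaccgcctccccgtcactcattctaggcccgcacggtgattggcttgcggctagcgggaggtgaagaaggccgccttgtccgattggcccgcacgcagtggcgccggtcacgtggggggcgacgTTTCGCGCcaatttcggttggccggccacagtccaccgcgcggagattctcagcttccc
LIG1: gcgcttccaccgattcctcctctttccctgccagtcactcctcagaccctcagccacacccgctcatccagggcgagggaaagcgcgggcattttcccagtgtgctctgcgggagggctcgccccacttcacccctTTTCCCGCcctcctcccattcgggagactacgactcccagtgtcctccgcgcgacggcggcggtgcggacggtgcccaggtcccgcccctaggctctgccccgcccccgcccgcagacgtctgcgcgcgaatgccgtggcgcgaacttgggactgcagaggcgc
E2F1: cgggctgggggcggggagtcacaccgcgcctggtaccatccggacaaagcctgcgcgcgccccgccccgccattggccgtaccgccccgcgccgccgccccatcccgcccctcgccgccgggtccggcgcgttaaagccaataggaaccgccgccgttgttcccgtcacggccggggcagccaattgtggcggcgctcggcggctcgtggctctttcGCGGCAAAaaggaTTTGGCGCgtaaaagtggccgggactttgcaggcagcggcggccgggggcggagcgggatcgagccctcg
ORC5: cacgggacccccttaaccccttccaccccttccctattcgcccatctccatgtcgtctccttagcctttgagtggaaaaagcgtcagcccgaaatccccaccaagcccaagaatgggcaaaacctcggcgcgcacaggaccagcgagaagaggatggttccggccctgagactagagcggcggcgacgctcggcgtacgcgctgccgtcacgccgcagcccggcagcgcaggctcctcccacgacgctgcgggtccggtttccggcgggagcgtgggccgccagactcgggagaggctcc

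The MCM2 window holds an E2F word on each strand, and these overlap (bases 253 to 260 and 257 to 264 of the window). In the MCM7 window the words are at bases 64 to 71 and 242 to 249, in the E2F1 window at bases 218 to 225 and 231 to 238, and in the LIG1 window at bases 137 to 144. The ORC5 window contains none of the 4 words. Neither do the windows of POLD2, FEN1, PRIM1, RFC4, SLBP, RRM1 and CDC45, which are not shown and whose genes were lower under TBX2.

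Library totals ranged from 7365221 to 11743179 counts. A single row, ENSG00000266658, held 10.7% to 53.5% of the counts of a library. Levels are therefore given as CPM, that is counts set to a common library size, after TMM scaling, a method that takes most genes to be equal between libraries. EV replicate c stood apart from its group in this row, with 12.4% of its counts against 32.7% and 34.7% in the other 2. So did TBX3 replicate c (10.7% against 38.5% and 47.4%) and TBX5 replicate a (22.5% against 53.5% and 52.7%). The TBX2 libraries ranged from 19.6% to 40.5%. Each library of a TBX group carried its own transgene, with 27704 to 47916 TBX2 counts, 135416 to 320890 TBX3 counts and 85197 to 109159 TBX4 counts, and with 1161 to 1302 reads at the human TBX5 row from the mouse plasmid. The library titled 4c-TBX5, taken here as TBX4 replicate c by its number, held 85197 TBX4 counts and 1 TBX5 count. Of the markers of lung adenocarcinoma, NKX2-1, SFTPB, SFTPC, SFTPA1 and SLC34A2 stayed at or below 0.574 CPM in every library and NAPSA reached 1.15 CPM, so these markers were at or near 0. Of the epithelial markers KRT8 (19.3 to 52.7 CPM) and KRT18 (43.2 to 75.8 CPM) were present, and KRT19, EPCAM and CDH1 were at or below 0.487 CPM. Of the mesenchymal markers VIM ranged from 692 to 970 CPM, FN1 from 34.1 to 56.2 CPM and CDH2 from 20.6 to 31.2 CPM. The 11 leukocyte, endothelial and fibroblast markers found in the table were all at or below 1.36 CPM.

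Together the 49 genes made up 3366 to 3451 CPM in the Ctl libraries and 3234 to 3432 CPM in the EV libraries. The sum was 2903 to 2977 CPM in the TBX2 libraries, 3094 to 3272 CPM in TBX3, 3203 to 3246 CPM in TBX4 and 2973 to 3213 CPM in TBX5. Every TBX2 and TBX5 library thus lay below every control library, whereas the TBX3 and TBX4 ranges touched the EV range. Per kilobase of exon, MCM7 (82.8 CPM per kb, SD 4.14, n = 3, in EV) and PCNA (79.4, SD 2.76) were the highest of the 49, while the lowest, GINS1 (2.64, SD 0.204), CCNE1 (2.65, SD 0.386), GINS4 (2.66, SD 0.057) and LIG1 (2.66, SD 0.185), did not differ beyond their spread. The Ctl libraries gave PCNA 91.5 CPM per kb (SD 1.34) and MCM7 80.6 (SD 2.36), so that the order of the first 2 depended on the control. The lowest in Ctl were CCNE1 (2.28, SD 0.107) and GINS4 (2.36, SD 0.265), so that the order at the low end did so too. Exon length here is that of all annotated exons of a gene joined, 11348 bases for LIG1 and 5447 for GINS4, not that of a single mRNA. The order per kilobase thus depends on the annotation as well. Exon lengths and overlaps were read from a GENCODE annotation on GRCh37, which is not the release that the reads were counted with. In it 12 of the 49 genes share more than 5% of their exon bases with other genes. Reads where counted genes overlap cannot be assigned without strand, and how many there were was not tested.

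Each TBX group was compared with EV and with Ctl in 1 edgeR quasi-likelihood fit of all 18 libraries, and a gene was called at an adjusted p under 0.1 (Benjamini-Hochberg over the 15576 genes). Differences are log2 fold changes ± their standard error. Against EV, TBX2 lowered 21 of the 49 genes and raised 1, where 13.4% of all tested genes were called lower and 14.7% higher. Against Ctl, 20 were lower and 1 was higher (13.4% and 15.3% of all genes). The median difference of the 49 genes was -0.17 against EV and -0.16 against Ctl, and that of all genes was 0.0053 and -0.00037. TBX5 came next, with 9 lower and 1 higher against EV (4.96% and 5.26% of all genes) and 11 lower and 1 higher against Ctl (4.37% and 5.7%), at medians of -0.11 and -0.14. Under TBX3 5 were lower and 1 was higher against EV (4.13% and 5.78% of all genes), and 7 were lower and 0 higher against Ctl (4.15% and 6.66%), at medians of -0.07 and -0.11. Under TBX4 0 genes were called against EV by edgeR (2.63% of all genes were lower and 3.83% higher), where 7 had an unadjusted p under 0.05 and DESeq2 called 0, and 1 was lower and 1 higher against Ctl (4.03% and 5.68%), at medians of -0.04 and -0.07.

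These counts rest on the scaling. With library totals in place of TMM, which moved the median of all genes by -0.41 to 0.36 in the 8 contrasts, 0 of the 49 genes were called in any of them. Among all genes that scaling called 55 lower and 186 higher for TBX2 against EV, in place of 2089 and 2290. The median of the 49 genes relative to that of all genes was nearly the same under both scalings. It was -0.17 and -0.17 for TBX2 against EV, -0.04 and -0.04 for TBX4 and -0.11 and -0.11 for TBX5. A change of scaling moves all genes of a contrast by nearly the same amount. This likeness therefore follows from the method and says nothing about which scaling is right.

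**Figure D1:**
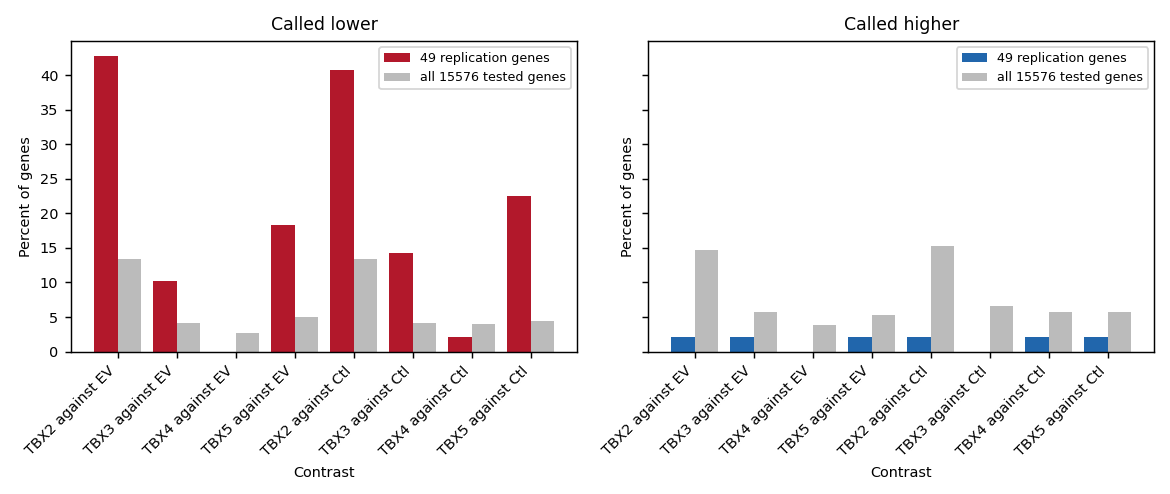
Share of genes called lower (left) and higher (right) in each contrast of a TBX group with a control, in percent, for the 49 replication genes (coloured bars) and for all 15576 tested genes (grey bars). The coloured bar for lower genes stands above the grey bar under TBX2, TBX3 and TBX5 with either control, and no coloured bar for higher genes does.

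Between the 2 controls no call was made in these genes, which with 3 libraries each does not show that they were equal. In EV against Ctl, 0 of the 49 were called by edgeR (0.0514% of all genes were lower and 0.135% higher), 2 had an unadjusted p under 0.05 and DESeq2 called 0. Those 2 were PCNA (-0.20 ± 0.06) and CDT1 (-0.19 ± 0.09), both lower in EV. The median of the 49 genes was -0.01, and single genes ranged from -0.32 to 0.25, with standard errors of 0.06 to 0.20.

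A stricter count asked for a call in the same direction against EV and against Ctl, which share the TBX libraries of each comparison. By that count TBX2 lowered 18 of the 49 genes and raised 1 (9.46% and 11.1% of all genes). TBX5 lowered 6 (2.45% of all genes, 3.41% higher), TBX3 lowered 3 (1.82%, and 4.03% higher) and TBX4 changed 0 (1.38% lower and 2.63% higher). For TBX4, 5 genes had an unadjusted p under 0.05 against both controls and DESeq2 called 0. In all, 20 of the 49 genes were lower under at least 1 plasmid, 7 of them under 2 and none under 3 or 4. The 7 were MCM2, MCM7, POLA1, POLD2 and FEN1 (TBX2 and TBX5) and MCM3 and LIG1 (TBX2 and TBX3). ORC5 was the 1 gene that was higher, and the other 28 were not called against both controls under any plasmid. No gene was lower under one plasmid and higher under another.

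**Figure D2:**
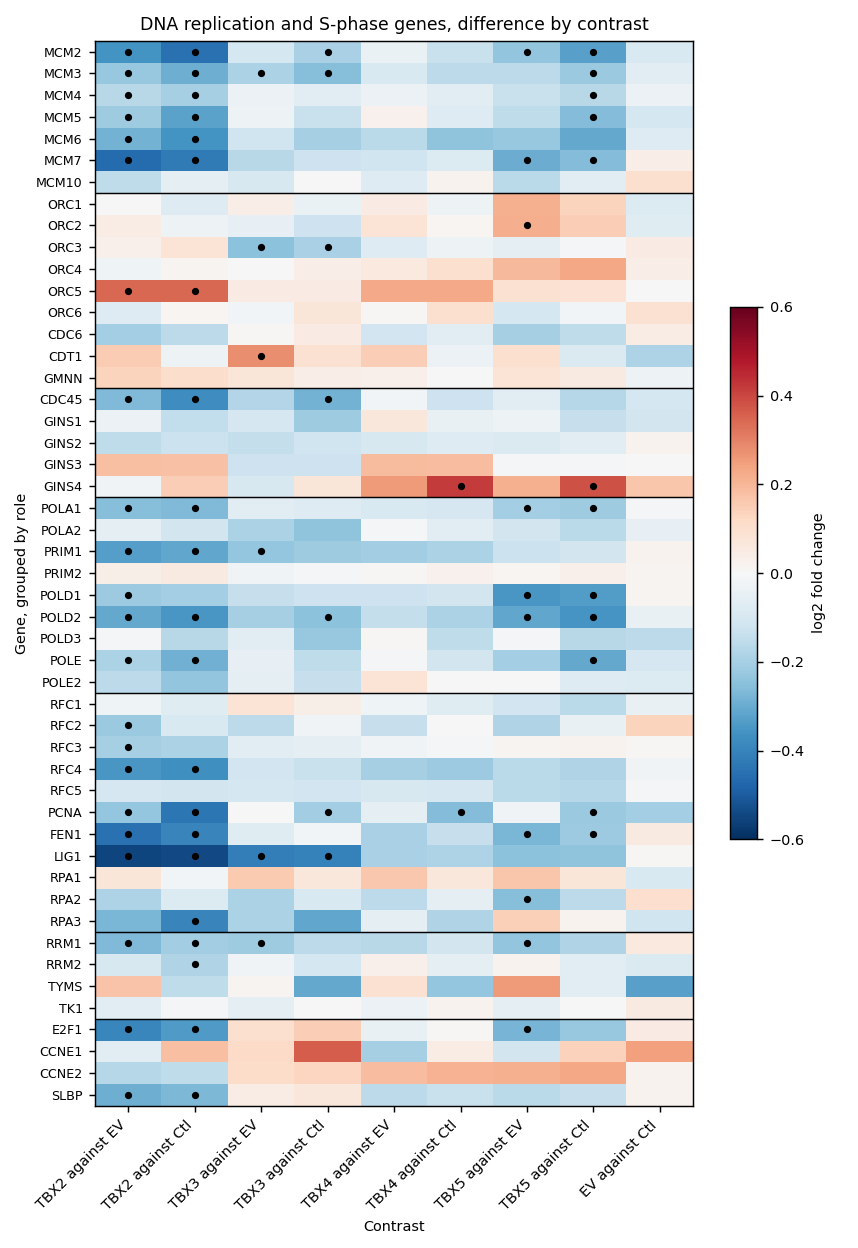
Log2 fold change of each of the 49 genes (rows, grouped by role and separated by lines) in the 8 contrasts of a TBX group with a control and in EV against Ctl (columns). Blue is lower and red is higher in the group named first, and a dot marks an adjusted p under 0.1. The TBX2 columns carry most of the dots, among them all 6 subunits MCM2 to MCM7, and the EV against Ctl column carries none.

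**Figure D3:**
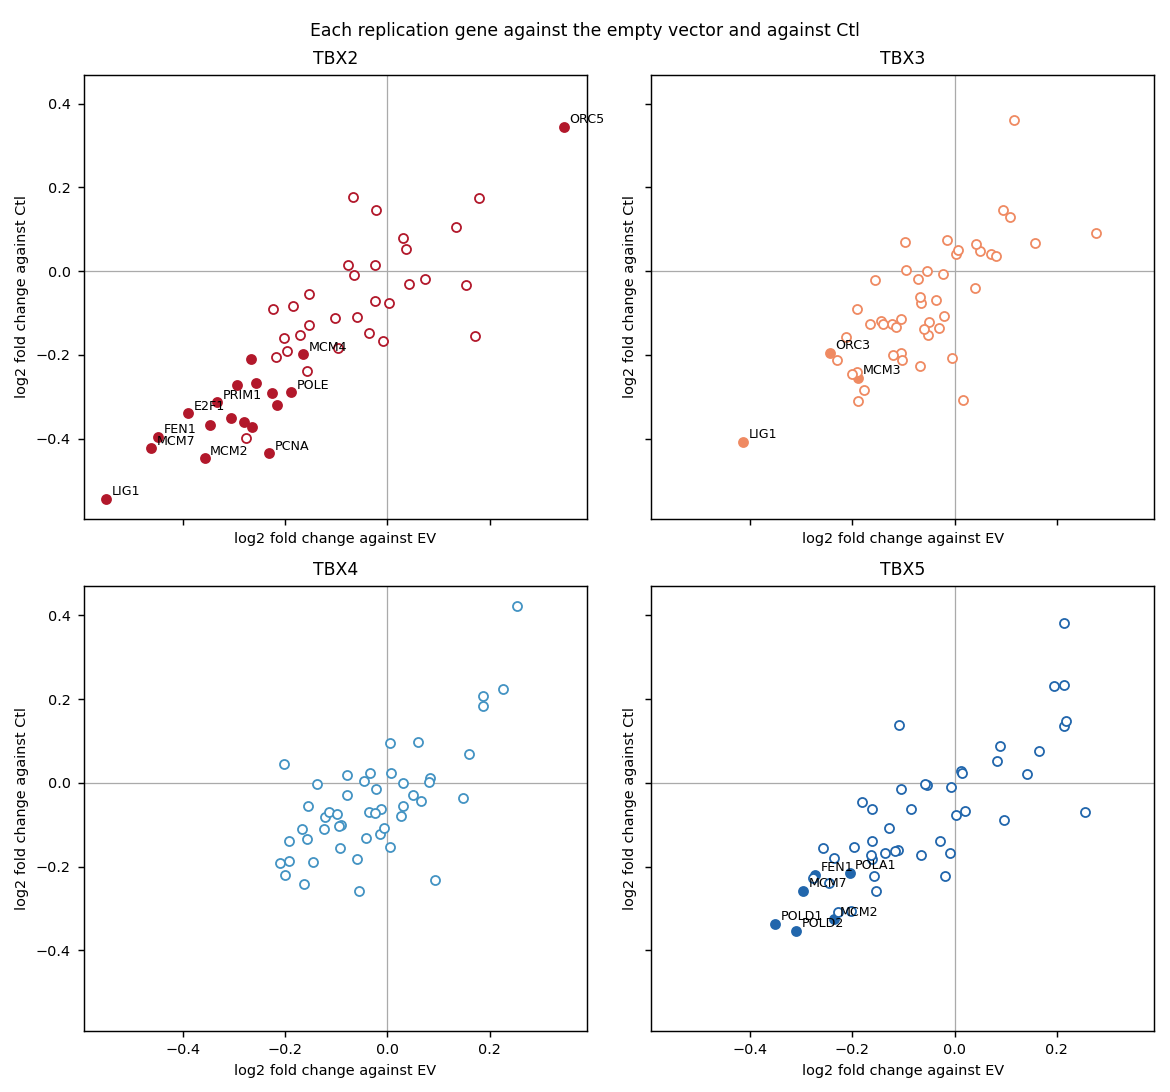
Log2 fold change of each of the 49 genes against EV (horizontal axis) and against Ctl (vertical axis), 1 panel per plasmid, where filled points were called in the same direction against both. The 2 axes share the TBX libraries. TBX2 has 19 filled points (10 of them named), TBX5 has 6, TBX3 has 3 and TBX4 has none.

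The MCM2 to MCM7 proteins form the ring-shaped helicase that unwinds DNA at the fork. Under TBX2 all 6 of these genes were lower than in both controls, where 9.46% of all tested genes were. The differences were -0.17 to -0.46 against EV and -0.20 to -0.45 against Ctl. MCM10, which helps to switch the helicase on, was not called (-0.15 ± 0.08 and -0.05 ± 0.08). MCM7 (GRCh37 chr7) read 408, 387 and 406 CPM in the Ctl libraries, 392, 407 and 433 in EV, 296, 334 and 265 in TBX2, 353, 353 and 393 in TBX3, 385, 395 and 353 in TBX4 and 342, 340.5 and 321 in TBX5. All TBX2 and all TBX5 libraries were below all control libraries. Such separation is common. Against EV, 17.7% of all tested genes had all TBX2 libraries below and 17.7% above (40.8% and 2.04% of the 49). The shares were 12.4% and 12.4% for TBX5 (36.7% and 8.16%). They were 12.5% and 13.7% for TBX3 (18.4% and 8.16%), and 11.5% and 11.8% for TBX4 (16.3% and 8.16%). In EV against Ctl they were 6.84% and 7.68% (10.2% and 8.16%). Shares for both controls at once were not counted. MCM7 fell by 27.4% against EV under TBX2 (-0.46 ± 0.07, adjusted p = 4.58e-05 from edgeR) and by 18.6% under TBX5 (-0.30 ± 0.08, adjusted p = 0.0154).

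MCM2 read 137, 141 and 146 CPM in Ctl, 122, 137 and 138 in EV, 108, 111 and 91.2 in TBX2, 119, 124 and 127 in TBX3, 127, 137 and 122 in TBX4 and 114, 109 and 116 in TBX5. Again no TBX2 or TBX5 library reached a control library, while TBX3 overlapped EV and lay below Ctl. The differences of MCM2 were -0.36 ± 0.07 against EV and -0.45 ± 0.07 against Ctl under TBX2, and -0.24 ± 0.07 and -0.33 ± 0.07 under TBX5. In the GENCODE annotation 23.6% of its exon bases are shared with another gene, and whether reads there were left out of its counts was not tested.

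MCM3 read 145, 146 and 156 CPM in Ctl, 136, 142 and 149 in EV, 121, 129 and 114 in TBX2, 127, 127 and 122 in TBX3, 133, 138 and 129 in TBX4 and 125, 128 and 130.1 in TBX5. Here the TBX2 and TBX3 libraries were the ones called below both controls, at -0.23 ± 0.06 and -0.19 ± 0.06 against EV (adjusted p = 0.00966 and 0.0646, edgeR). TBX5 was lower than Ctl (-0.22 ± 0.06) but was not called against EV (-0.16 ± 0.06). Under TBX4 none of the 7 genes was called against either control, with differences from -0.24 to 0.03. Of all tested genes 2.63% were lower and 3.83% higher against EV, and 4.03% and 5.68% against Ctl. A count of 0 in 7 genes cannot be told from these shares.

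**Figure D4:**
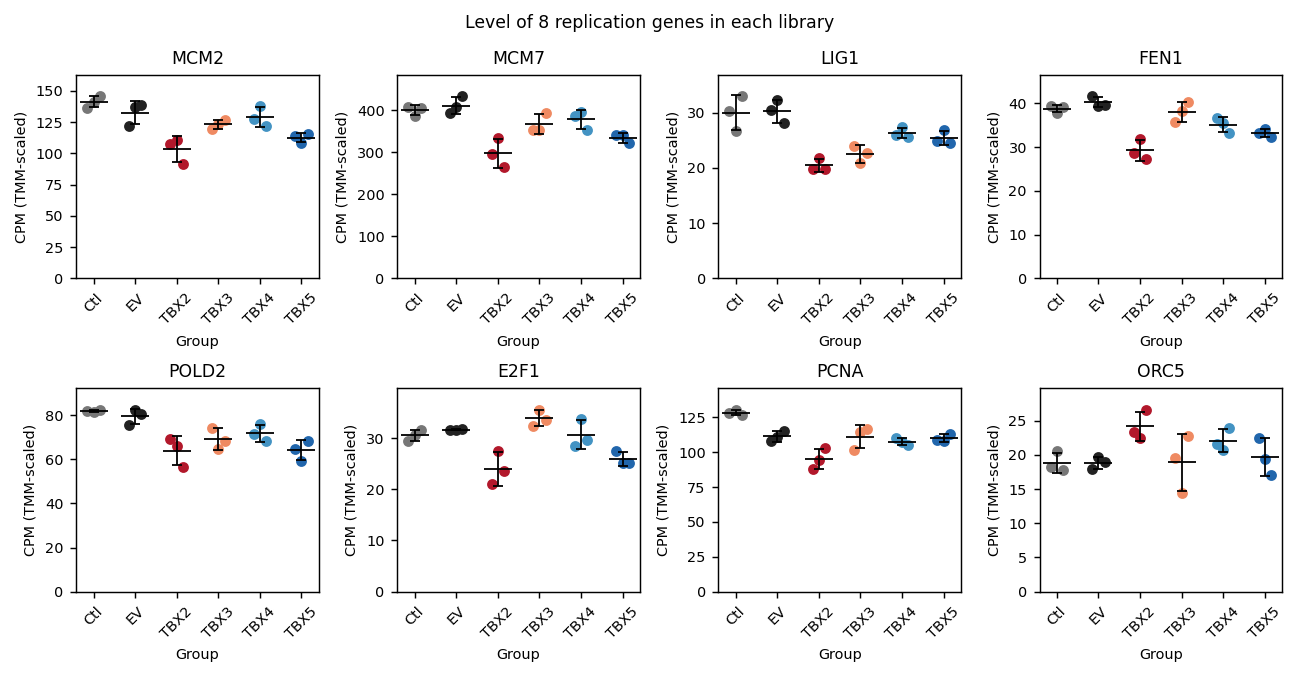
Level of 8 of the genes in each of the 18 libraries, in CPM after TMM scaling, with 1 point per library and the mean and SD of each group of 3 (black). Axes start at 0. The TBX2 points lie below all control points for MCM2, MCM7, LIG1, FEN1, POLD2, E2F1 and PCNA and above them for ORC5. All 8 genes were called against both controls under TBX2. Of all tested genes, 17.7% had all TBX2 libraries below all EV libraries and 17.7% above.

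The helicase is loaded by ORC1 to ORC6, CDC6 and CDT1, and GMNN inhibits CDT1. Of these 9 licensing genes TBX2 lowered 0 and raised 1, ORC5, against each control (11.1% higher, where 13.4% of all genes were lower and 14.7% higher against EV), counts too small to tell from those shares, and their median difference was 0.03 against EV and 0.01 against Ctl. ORC5 read 18.2, 20.5 and 17.8 CPM in Ctl, 17.9, 19.6 and 18.9 in EV, 23.4, 22.4 and 26.6 in TBX2, 19.5, 14.5 and 22.7 in TBX3, 21.6, 20.7 and 24 in TBX4 and 22.5, 19.4 and 17.1 in TBX5. All TBX2 libraries were above all control libraries, with rises of 27.1% (0.35 ± 0.12, adjusted p = 0.0335, edgeR) and 27.0% (0.34 ± 0.12, adjusted p = 0.0349). The TBX4 libraries were also above all control libraries, but that difference was not called (0.23 ± 0.11 against each control, adjusted p = 0.307 and 0.267 from edgeR).

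ORC3, another subunit of the origin recognition complex, was lower than both controls under TBX3, and was also lower there than under TBX2 when the 2 groups were tested against each other. It read 64, 58.4 and 58.4 CPM in Ctl, 62.6, 61.9 and 62.5 in EV, 63.4, 66.8 and 60.4 in TBX2, 52.4, 51.7 and 53.5 in TBX3, 62.6, 53.9 and 60.7 in TBX4 and 61.5, 57.1 and 61 in TBX5. The 3 TBX3 libraries were below all other libraries. CDC6, the loader that joins ORC before CDT1, read 38.7, 40.7 and 44.4 CPM in Ctl, 44.2, 38.3 and 44.7 in EV, 38.9, 38.9 and 32.1 in TBX2, 41.7, 44.7 and 42.2 in TBX3, 39.6, 37.3 and 41.2 in TBX4 and 41.6, 30.8 and 37.4 in TBX5. Its groups overlapped and no contrast was called, the largest difference being -0.20 ± 0.09 (TBX2 against EV). Against EV only, CDT1 was higher under TBX3 (0.28 ± 0.09) and ORC2 under TBX5 (0.22 ± 0.08), and neither was called against Ctl (0.09 ± 0.09 and 0.15 ± 0.08). The ORC2 call held in 6 of the 18 fits that leave out 1 library. Scaled by library totals its difference was -0.17, at a median of all genes of -0.41 (0.23 relative to it).

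CDC45 and the 4 GINS subunits bind the loaded helicase to make it active. TBX2 lowered CDC45 against both controls and changed none of the GINS genes against either. That is 20% of these 5 genes, where 9.46% of all tested genes were lower, too few genes to tell from that share. CDC45 read 36.7, 35.9 and 33.5 CPM in Ctl, 29.6, 34.8 and 33.8 in EV, 27.6, 30.5 and 22.9 in TBX2, 30.3, 29.7 and 27.7 in TBX3, 34, 33.4 and 30.0 in TBX4 and 32, 28.6 and 33.3 in TBX5. The TBX2 libraries were below all Ctl libraries and overlapped EV replicate a, and the differences were -0.37 ± 0.09 and -0.27 ± 0.09. TBX3 was lower than Ctl (-0.28 ± 0.09) but not than EV (-0.18 ± 0.09).

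GINS4 was higher under TBX4 and TBX5 in the contrast with Ctl. It read 13.5, 13.8 and 11.2 CPM in Ctl, 14.9, 14.3 and 14.4 in EV, 13.2, 15.8 and 13.5 in TBX2, 11.3, 16 and 13.6 in TBX3, 18.5, 17.7 and 15.5 in TBX4 and 17.4, 16.1 and 16.6 in TBX5. All TBX4 and TBX5 libraries exceeded all control libraries. Against Ctl the rises were called (0.42 ± 0.11 and 0.38 ± 0.12), and against EV they were not (0.25 ± 0.11 and 0.21 ± 0.12). GINS3 read 14.9, 15.1 and 14.5 CPM in Ctl, 15.7, 13.8 and 14.9 in EV, 15.5, 18.6 and 15.7 in TBX2, 11.5, 13 and 15.3 in TBX3, 17.5, 16.5 and 16.5 in TBX4 and 14.8, 15.7 and 13.8 in TBX5. The TBX4 libraries were above all control libraries, and no contrast with a control was called. In the annotation 23.4% of the exon bases of GINS4 are shared with other genes.

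Among the 9 polymerase and primase genes, TBX2 lowered POLA1, PRIM1, POLD2 and POLE against both controls, and POLD1 against EV (-0.22 ± 0.09) but not Ctl (-0.20 ± 0.09). TBX5 lowered POLA1, POLD1 and POLD2 against both and POLE against Ctl (-0.31 ± 0.07). The calls against both controls are 44.4% of these 9 genes under TBX2 and 33.3% under TBX5. Of all tested genes 9.46% and 2.45% were lower against both. POLD2, the accessory subunit of polymerase delta, read 82.1, 81.5 and 82.6 CPM in Ctl, 75.7, 82.3 and 80.5 in EV, 69.1, 66.3 and 56.7 in TBX2, 74.4, 64.7 and 68.5 in TBX3, 71.6, 76 and 68.2 in TBX4 and 64.6, 59.3 and 68.5 in TBX5. Every TBX2, TBX3 and TBX5 library was below every control library. The differences against EV were -0.31 ± 0.07 under TBX2, -0.31 ± 0.08 under TBX5 and -0.20 ± 0.07 under TBX3, of which the last was called only against Ctl (-0.24 ± 0.07). POLD2 is among the genes that the study itself picked on these libraries, so its direction is not independent evidence.

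POLA1, the catalytic subunit of polymerase alpha, read 75.7, 70.1 and 78.5 CPM in Ctl, 71.9, 77.4 and 73.5 in EV, 58.6, 63.4 and 64.6 in TBX2, 73.6, 71.7 and 68.1 in TBX3, 69.5, 69.4 and 70.2 in TBX4 and 64.9, 66.9 and 61.4 in TBX5. The TBX2 and TBX5 libraries lay below all controls, at -0.26 ± 0.07 and -0.20 ± 0.07 against EV. PRIM1, the catalytic primase subunit, read 41.2, 36.6 and 39.6 CPM in Ctl, 38.7, 39.3 and 40.5 in EV, 31.6, 31.4 and 31.3 in TBX2, 35.4, 28.7 and 36.1 in TBX3, 33.6, 33.1 and 36 in TBX4 and 37.8, 35.9 and 34.4 in TBX5. The 3 TBX2 libraries were nearly equal (-0.33 ± 0.08 and -0.31 ± 0.08), and TBX3 was called lower against EV only (-0.23 ± 0.08). All PRIM1 libraries of TBX2, TBX3 and TBX4 were below all control libraries, and TBX4 was not called. Its partner PRIM2 stayed within -0.02 to 0.05 of the controls in all 8 contrasts, and POLA2, POLD3 and POLE2 were called in none.

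The clamp, its loader, the enzymes that finish the lagging strand and the single-strand binding proteins are 11 genes. Of these TBX2 lowered RFC4, PCNA, FEN1 and LIG1 against both controls (36.4%, where 9.46% of all tested genes were lower). LIG1 (GRCh37 chr19:48618702-48673860), the ligase that seals Okazaki fragments, read 30.3, 26.6 and 32.9 CPM in Ctl, 30.4, 32.2 and 28 in EV, 19.8, 21.7 and 19.8 in TBX2, 24, 20.8 and 22.6 in TBX3, 25.9, 27.3 and 25.6 in TBX4 and 24.9, 26.8 and 24.6 in TBX5. The TBX2 and TBX3 libraries were below all controls and the TBX4 and TBX5 libraries overlapped Ctl. Under TBX2 LIG1 fell by 31.7% against EV (-0.55 ± 0.09, adjusted p = 5.1e-05, edgeR) and by 31.4% against Ctl (-0.54 ± 0.09), the largest decrease of the 49 genes in any contrast with a control. Under TBX3 it fell by 24.9% against EV (-0.41 ± 0.09, adjusted p = 0.00363, edgeR) and by 24.6% against Ctl.

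FEN1, the nuclease that trims Okazaki fragments, read 39.3, 37.8 and 39.1 CPM in Ctl, 41.6, 39.4 and 39.7 in EV, 28.6, 31.9 and 27.3 in TBX2, 35.8, 38.2 and 40.2 in TBX3, 36.7, 35.4 and 33.2 in TBX4 and 33.3, 34.1 and 32.4 in TBX5. All TBX2, TBX4 and TBX5 libraries were below all controls. FEN1 fell by 26.7% against EV under TBX2 (-0.45 ± 0.08) and by 17.2% under TBX5 (-0.27 ± 0.08), and the TBX4 difference was not called (-0.19 ± 0.07, adjusted p = 0.134, edgeR). RFC4, a subunit of the clamp loader, read 35.9, 39.5 and 39 CPM in Ctl, 34.6, 34.3 and 42.7 in EV, 27.7, 29 and 32.6 in TBX2, 37.1, 33.5 and 33.9 in TBX3, 35.8, 31.4 and 30.9 in TBX4 and 35.5, 31.5 and 33.1 in TBX5. Only the TBX2 libraries were below all control libraries (-0.35 ± 0.09 and -0.37 ± 0.09). RFC2 and RFC3 were lower under TBX2 against EV only (-0.22 ± 0.07 and -0.20 ± 0.08), and RFC1 and RFC5 were called in no contrast with a control.

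PCNA, the clamp itself, had the smallest p of the 49 genes between the 2 controls. It read 128, 130.5 and 127 CPM in Ctl, 108, 111 and 116 in EV, 88.2, 94.5 and 103 in TBX2, 102, 115 and 117 in TBX3, 110.0, 107 and 105 in TBX4 and 109, 108 and 113 in TBX5. All libraries of the EV and TBX groups were below the Ctl libraries, and only the TBX2 libraries were also below all EV libraries. Against Ctl the differences were -0.44 ± 0.07 (TBX2), -0.21 ± 0.06 (TBX3), -0.26 ± 0.06 (TBX4) and -0.22 ± 0.07 (TBX5), all called, and scaling by library totals gave 0.10 for TBX4, at a median of all genes of 0.36 (-0.26 relative to it). Against EV they were -0.23 ± 0.07 under TBX2, which was called, and -0.0043 ± 0.07, -0.05 ± 0.06 and -0.02 ± 0.07 under the other 3. Of the single-strand binding proteins, RPA1 was called nowhere, RPA2 was lower under TBX5 against EV (-0.26 ± 0.09) and RPA3 under TBX2 against Ctl (-0.40 ± 0.13). PCNA, FEN1 and POLD2 are among 10 of the 49 genes with table rows named as their pseudogenes, 18 rows in all, and none of these rows had more than 8 counts in a library. Reads that map to a gene and a copy alike are left out by featureCounts at its defaults, and how many there were was not tested.

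RRM1 and RRM2 encode the 2 subunits of ribonucleotide reductase, which makes deoxynucleotides, and TYMS and TK1 supply thymidylate. RRM1 read 80.9, 76.5 and 82.5 CPM in Ctl, 85.1, 80.7 and 83.5 in EV, 66.4, 68.9 and 72.4 in TBX2, 68.7, 67.3 and 78 in TBX3, 75.4, 74.6 and 71.9 in TBX4 and 74.1, 65.3 and 71.6 in TBX5. The TBX2, TBX4 and TBX5 libraries were all below the controls. The TBX2 differences were called against both (-0.27 ± 0.07 and -0.21 ± 0.07), and those of TBX3 (-0.21 ± 0.07) and TBX5 (-0.24 ± 0.07) against EV only.

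RRM2 read 287, 272 and 239 CPM in Ctl, 249, 251 and 252 in EV, 227, 219 and 258 in TBX2, 254, 237 and 249 in TBX3, 248, 255 and 265 in TBX4 and 281, 237 and 243 in TBX5. Its groups overlapped, and the 1 call was TBX2 against Ctl (-0.18 ± 0.07, adjusted p = 0.0805, edgeR). TYMS read 60.5, 64.1 and 35.3 CPM in Ctl, 43.9, 41.8 and 42.4 in EV, 52.2, 32 and 62.7 in TBX2, 41.7, 37.9 and 48.2 in TBX3, 39.9, 43.1 and 54 in TBX4 and 69.3, 32.9 and 45.4 in TBX5. Its standard errors were 0.19 to 0.21, no contrast was called, and 47.9% of its exon bases are shared with other genes. TK1 stayed within -0.06 to 0.02 of the controls and was not called.

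E2F1 and the cyclins CCNE1 and CCNE2 act at the entry into S phase, and SLBP binds the stem-loop of histone mRNAs. E2F1 (GRCh37 chr20:32263283-32274191) read 29.5, 30.7 and 31.5 CPM in Ctl, 31.6, 31.6 and 31.8 in EV, 21, 27.6 and 23.5 in TBX2, 32.5, 35.6 and 33.6 in TBX3, 28.4, 33.9 and 29.7 in TBX4 and 27.5, 25.2 and 25.1 in TBX5. The TBX2 and TBX5 libraries were below all controls and the TBX3 libraries above all of them. TBX2 lowered E2F1 against both controls (-0.39 ± 0.09 and -0.34 ± 0.09) and TBX5 against EV only (-0.28 ± 0.09, and -0.23 ± 0.09 against Ctl). The TBX3 difference was not called (0.10 ± 0.08 and 0.15 ± 0.09).

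SLBP read 74, 79.6 and 83.9 CPM in Ctl, 81.1, 78.7 and 81.5 in EV, 62.7, 70.9 and 62.7 in TBX2, 82.6, 83.7 and 82.5 in TBX3, 71.8, 68.6 and 76.2 in TBX4 and 70.6, 73.8 and 71.6 in TBX5. All TBX2 and TBX5 libraries were below all controls, and TBX2 was called (-0.29 ± 0.07 and -0.27 ± 0.07) while TBX5 was not (-0.16 ± 0.07 and -0.14 ± 0.07). CCNE2 read 14.9, 14.7 and 14.2 CPM in Ctl, 13.7, 15.5 and 15.1 in EV, 11.4, 14 and 14.3 in TBX2, 13.9, 17 and 16.7 in TBX3, 17.1, 17.3 and 16.2 in TBX4 and 16.5, 17.3 and 18.1 in TBX5. The TBX4 and TBX5 libraries were above all controls, yet none of its 8 contrasts with a control was called (-0.17 to 0.23). CCNE1 read 5.88, 5.59 and 5.36 CPM in Ctl, 5.48, 6.76 and 7.34 in EV, 5.51, 7.45 and 5.84 in TBX2, 8.52, 8.45 and 5.69 in TBX3, 5.05, 6.38 and 5.93 in TBX4 and 6.44, 7.34 and 4.65 in TBX5. Its groups overlapped, and its largest difference was not called (0.36 ± 0.18, TBX3 against Ctl).

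Whether the plasmids differed from each other was tested between the TBX groups themselves. The differences use no control mean, but the control libraries share in the scaling and in the estimate of the spread. TBX2 against TBX3 gave 10 called genes of the 49 (15.5% of all genes), 8 lower and 2 higher under TBX2. Lower were E2F1 (-0.49 ± 0.09, adjusted p = 0.000587, edgeR), FEN1 (-0.38 ± 0.08), SLBP (-0.34 ± 0.07), MCM7 (-0.30 ± 0.08), CCNE2 (-0.28 ± 0.11), MCM2 (-0.25 ± 0.07), PCNA (-0.23 ± 0.07) and POLA1 (-0.19 ± 0.07). ORC3 (0.28 ± 0.07) and GINS3 (0.30 ± 0.11) were higher. LIG1, lower than both controls under either plasmid, was not called between them.

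TBX2 against TBX4 gave 9, all lower under TBX2 (12.3% of all genes called in either direction): CCNE2 (-0.36 ± 0.10), LIG1 (-0.36 ± 0.09), E2F1 (-0.35 ± 0.09), MCM7 (-0.34 ± 0.07), MCM2 (-0.32 ± 0.07), FEN1 (-0.26 ± 0.08), CDC45 (-0.25 ± 0.09), MCM5 (-0.24 ± 0.08) and PCNA (-0.18 ± 0.07). TBX2 against TBX5 gave 4, again all lower under TBX2 (12.1% of all genes): RPA3 (-0.42 ± 0.14), CCNE2 (-0.39 ± 0.11), LIG1 (-0.30 ± 0.10) and PCNA (-0.21 ± 0.07). CCNE2, called against no control, was thus lower under TBX2 than under each of the other 3 plasmids, although its call against TBX3 held in 4 of the 18 fits that leave out 1 library and 37.1% of its exon bases are shared with other genes. Scaled by library totals, the TBX2 against TBX5 differences of PCNA and LIG1 were 0.10 and 0.02, where the median of all genes was 0.32. Relative to that median they were -0.21 and -0.30, as with TMM (-0.21 and -0.30). This follows from a shift that all genes share and is no separate check.

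TBX3 against TBX4 gave 3 (9.97% of all genes), with GINS3 (-0.31 ± 0.10) and GINS4 (-0.35 ± 0.11) lower and SLBP (0.20 ± 0.07, or -0.14 scaled by library totals, where the median of all genes was -0.34) higher under TBX3. TBX3 against TBX5 gave 4 (7.41%), with ORC2 lower (-0.27 ± 0.08) and E2F1 (0.37 ± 0.09), SLBP (0.20 ± 0.07) and RFC1 (0.20 ± 0.07) higher under TBX3. TBX4 against TBX5 gave 0 by edgeR (0.539% of all genes, 0.43% lower and 0.109% higher) and 0 by DESeq2, with 7 genes at an unadjusted p under 0.05, all of them lower under TBX5. As shares of the 49 genes, the calls came to 20.4% (TBX2 against TBX3), 18.4% (TBX2 against TBX4), 8.16% (TBX2 against TBX5), 6.12% (TBX3 against TBX4) and 8.16% (TBX3 against TBX5), in either direction. By direction, 16.3% of the 49 were lower and 4.08% higher in TBX2 against TBX3, where 7.51% and 8.01% of all genes were. In TBX2 against TBX4 18.4% were lower and 0% higher (5.61% and 6.66% of all genes), and in TBX2 against TBX5 8.16% and 0% (5.69% and 6.45%). In TBX3 against TBX4 the shares were 4.08% and 2.04% (4.02% and 5.95% of all genes), and in TBX3 against TBX5 2.04% and 6.12% (3.11% and 4.3%), which in both is 1 to 3 genes a direction.

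A further list of 40 genes of replication and S phase outside the 49, of which 39 matched and all 39 were tested, was read in the same fit. TBX2 lowered 14 and raised 2 against EV (35.9% and 5.13%, where 13.4% and 14.7% of all genes were called), and lowered 14 and raised 3 against Ctl (35.9% and 7.69%, against 13.4% and 15.3%), with medians of -0.10 and -0.17. TBX5 lowered 3 and raised 1 against EV (7.69% and 2.56%, against 4.96% and 5.26% of all genes), and lowered 5 and raised 1 against Ctl (12.8% and 2.56%, against 4.37% and 5.7%). TBX3 lowered 1 against EV (2.56%, against 4.13% of all genes) and 5 against Ctl (12.8%, against 4.15%) and raised 0 against either. TBX4 lowered 1 against EV (2.56%, against 2.63%) and 4 against Ctl (10.3%, against 4.03%) and raised 1 in each. The shares lowered by TBX3 and TBX4 against EV were thus no higher than those of all genes. Among those lower than both controls under TBX2 were RNASEH2A, a subunit of the nuclease that removes RNA from DNA (-0.38 ± 0.10 against EV), ASF1B, a histone chaperone (-0.35 ± 0.11), UNG, the uracil-DNA glycosylase (-0.31 ± 0.08), SKP2, which marks proteins such as the CDK inhibitor p27 for destruction (-0.31 ± 0.08), CCNA2, the S-phase cyclin A (-0.24 ± 0.07), E2F7 (-0.24 ± 0.09), and CDK2, the kinase of cyclins E and A (-0.20 ± 0.08). MTBP, a partner of the origin-firing factor TICRR, was higher (0.33 ± 0.09). RRM2B, an alternative small subunit of ribonucleotide reductase, was higher than both controls under TBX2 (0.22 ± 0.07) and TBX5 (0.30 ± 0.08), and CDK2 was also lower than both under TBX5 (-0.29 ± 0.09).

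How far single libraries carried these calls was tested by leaving out each of the 18 in turn. Of the 19 genes called against both controls under TBX2, 11 kept their call in all 18 fits: MCM2, MCM3, MCM7, POLA1, PRIM1, POLD2, PCNA, FEN1, LIG1, E2F1 and SLBP. Against EV the count fell from 22 to 14 without EV replicate c, and likewise to 14 without TBX2 replicate c. Of the 19 calls against both controls, those lost in some fit included MCM4 (without EV c or TBX2 c) and MCM5 (EV b, EV c, TBX2 a or TBX2 c). The others lost were MCM6 (EV a, EV b, EV c or TBX2 b), CDC45 (EV b, EV c or TBX2 c), POLE (EV a, EV c, TBX2 b or TBX2 c), RFC4 (EV c), RRM1 (TBX2 a) and ORC5 (Ctl c or TBX2 c).

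Of the 110 calls of the 49 genes in the single contrasts, 10 held in 9 or fewer of the 18 fits. They were POLD1 under TBX2 against EV (9), ORC2 and RPA2 under TBX5 against EV (6 and 9), MCM2 and ORC3 under TBX3 against Ctl (5 and 9), MCM4 and FEN1 under TBX5 against Ctl (5 and 9), CCNE2 in TBX2 against TBX3 (4), PCNA in TBX2 against TBX4 (4) and SLBP in TBX3 against TBX5 (8).

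Of the calls against both controls, LIG1 alone kept its call under TBX3 in all 18 fits, and POLD2 alone under TBX5. For TBX3 the count against both controls was 1 without EV b, EV c or TBX3 b and 5 without TBX5 a. The TBX3 count against EV was 3 without EV a, 1 without EV c and 2 without TBX3 b, and against Ctl it was 4 without Ctl a, Ctl b, TBX3 a or TBX3 b. For TBX5 the count against both was 3 without EV b and 2 without EV c or TBX5 c. Against EV it was 6 without EV a, 5 without EV b and 4 without EV c or TBX5 c, and against Ctl it was 7 without Ctl c and 6 without TBX5 c. Leaving out TBX4 replicate c, the library titled with TBX5, gave 0 called genes against EV, 2 against Ctl and 0 against both, the same numbers as with it, and 1 gene was called against EV without TBX4 a or without TBX3 b.

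The counts between plasmids moved in the same way. TBX2 against TBX4 gave 4 without TBX2 a and 5 without TBX4 b, and TBX2 against TBX5 gave 0 without TBX2 a and 2 without TBX5 a. TBX3 against TBX4 gave 0 without TBX3 a or TBX4 a and 1 without TBX3 b or TBX4 b, and TBX3 against TBX5 gave 1 without TBX3 a and 2 without Ctl b, EV a, EV b, TBX3 b or any single TBX5 library. In TBX2 against TBX3 5 of the 10 kept their call in all 18 fits.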

How the data were processed

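RNA was sequenced from 18 libraries of NCI-H1299 cells, 3 in each of 6 groups taken from the sample titles. The authors mapped read pairs with STAR 2.3.0 on GRCh37 (bcl2fastq 1.8.4 and DESeq2 are also named in the submitters' processing notes), counted them per gene with featureCounts at default settings, which ignore strand, and deposited raw counts with no normalization. Totals were 7365221 to 11743179 counts per library, which limits the precision for the least counted genes.

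From these counts, edgeR 4.0.16 (R 4.3.3) fitted 1 quasi-likelihood model of the 6 groups with TMM scaling, after a filter of over 5 counts in 10 or more of 18 libraries, and called genes two-sided at an adjusted p under 0.1 (Benjamini-Hochberg over 15576 genes). CPM values use TMM library sizes. Code was tested on simulated data. Alternatives were other scalings, filters and thresholds, DESeq2 1.42.0, separate fits, pooled controls, a replicate block, a covariate and leaving out each library.

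The 49 genes, their role lists and the further list of 40 genes were chosen with earlier results of these data known. Library values are printed for up to 3 genes of each role with the smallest larger adjusted p of the 2 controls under any plasmid, and for MCM2, CDC6, PCNA, RRM2, E2F1, CCNE1 and CCNE2. Genes of the further list are named when called against both controls, up to 10, except for an item that is not reported here. Gene positions, exon lengths and exon overlaps come from a GENCODE annotation on GRCh37, not from the release used for counting. Promoter windows come from RefSeq.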

Additional observations from a re-analysis of the deposited data

How the results depend on the processing

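Counts below are of the 49 genes called. Scaling by library totals gave 0 in all contrasts with a control, against both controls and between plasmids, except 33 for TBX4 against TBX5, and it turned the sign of ORC2 under TBX5 against EV (-0.17), PCNA under TBX4 against Ctl (0.10), PCNA and LIG1 in TBX2 against TBX5 (0.10 and 0.015) and SLBP in TBX3 against TBX4 (-0.14). It moved the medians of all genes there to -0.41, 0.36, 0.32 and -0.34. Relative to these the 5 differences were 0.23, -0.26, -0.21, -0.30 and 0.20, with the direction they had under TMM. That direction follows from a shift that all genes share, so it is no separate check. In TBX4 against TBX5 that median moved to 0.57, the 33 genes were all higher, and among all tested genes 12 were lower and 6522 higher. Scaling by library totals called, lower and higher, 0 and 11 (TBX3), 0 and 85 (TBX4) and 39 and 18 (TBX5) of all genes against EV. Against Ctl it called 21 and 486, 0 and 44, 7 and 466 and 22 and 43 for TBX2 to TBX5. At an adjusted p under 0.05 the counts were 2 (TBX3) and 6 (TBX5) against EV, 4 and 7 against Ctl, 1 (TBX2 against TBX5), 0 (TBX3 against TBX4), 2 (TBX3 against TBX5) and 1 (TBX3, both controls). DESeq2 gave 6 (TBX5 against EV) and 1 (TBX3 against TBX4). Without a filter there were 2 (TBX3 against EV), 1 (EV against Ctl), 1 each in TBX2 against TBX5, TBX3 against TBX4 and TBX3 against TBX5, and 1 (TBX3, both). With at least 10 counts in every library, or with TMM without the most counted gene, TBX3 had 5 against both. Pooling EV and Ctl as 6 controls gave 8 (TBX3), 3 (TBX4) and 15 (TBX5). Separate fits of 6 libraries gave 3 (TBX4 against EV), 5 (TBX4 against Ctl), 6 (TBX2 against TBX3), 0 (TBX2 against TBX5) and 2 (TBX3 against TBX5). A covariate for how much of a library ENSG00000266658 took, chosen after seeing the data, gave 3 (TBX4 against EV), 12 (TBX3 against Ctl), 6 (TBX4 against Ctl), 8 (TBX2 against TBX5), 6 (TBX3, both) and 1 (TBX4, both). The cause of these moves was not tested. Replicate letters did not pair the libraries (mean correlation -0.0023 for the same letter, with 5 of 45 pairs over 0.1, and 0.0012 for other letters). The replicate block gave 2 for TBX3 against TBX5 and moved no other count by more than 1.5 times. Leaving out 1 library gave 14 to 24 (TBX2), 1 to 7 (TBX3), 0 to 1 (TBX4) and 4 to 11 (TBX5) against EV. Against Ctl it gave 18 to 22, 4 to 10, 2 to 3 and 6 to 13. Against both it gave 13 to 20, 1 to 5, 0 to 0 and 2 to 7. Between plasmids it gave 7 to 11 (TBX2 against TBX3), 4 to 10 (TBX2 against TBX4), 0 to 5 (TBX2 against TBX5), 0 to 3 (TBX3 against TBX4) and 1 to 4 (TBX3 against TBX5).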
